A study of Mus musculus with 13 samples.

Results

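The Kruppel-like factors are transcription factors whose zinc fingers bind CACCC and GC-rich boxes in promoters. This account covers 7 of them, Klf2, Klf3, Klf4, Klf6, Klf7, Klf10 and Klf13, found by gene symbol among the 14518 gene entries of a table of normalized reads; the 7 symbols were chosen by name and each had 1 entry. The table holds RNA of microglia, the resident macrophages of the brain, in 13 samples from C57BL/6 mice aged 2 months. In the stress group (RSD, 7 samples), mice went through 6 cycles of repeated social defeat, a protocol of repeated exposure to an aggressive intruder. The controls (CON, 6 samples) were not defeated, and both groups were sampled 24 days after the end of the 6 cycles. Cells were enriched on Percoll and sorted as CD11b+/CD45int, so every value is an average over the cells that passed this gate.

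In macrophages and endothelium, Klf2 and Klf4 are known as factors that restrain inflammatory gene expression, and both are switched on by the kinase ERK5 acting through MEF2 factors. Klf6 is known in macrophages as a partner of NF-kappa-B at inflammatory genes. Klf3 is a repressor that recruits CtBP, Klf10 is an early target of TGF-beta, Klf13 was described as a factor acting late at Ccl5 in T cells, and Klf7 is best known from neurons and fat cells. Several members, Klf2, Klf4, Klf6 and Klf10 among them, can be induced within minutes as early-response genes, and Klf2, Klf4 and Klf6 are among the genes known to respond when tissue is dissociated into cells.

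The promoters of the 3 most abundant members are printed because the results turn on these genes. Each run is the 250 bases before the RefSeq start of the gene on GRCm38.p6, read 5′ to 3′ on the gene's strand, at chr8:72318812-72319061 (plus strand) for Klf2, chr4:55532476-55532725 (minus strand) for Klf4 and chr13:5861239-5861488 (plus strand) for Klf6. Capitals mark matches to motifs searched on both strands, namely the MEF2 site and, as GGGTG on the reverse strand, the CACCC box of Klf2, and the E-box CACGTG of Klf4 and Klf6.
Klf2: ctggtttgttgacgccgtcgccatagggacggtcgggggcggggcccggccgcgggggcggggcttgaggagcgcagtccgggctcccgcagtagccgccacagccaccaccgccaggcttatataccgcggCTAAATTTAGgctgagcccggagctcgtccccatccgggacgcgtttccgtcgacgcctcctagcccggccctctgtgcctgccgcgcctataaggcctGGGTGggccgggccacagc
Klf4: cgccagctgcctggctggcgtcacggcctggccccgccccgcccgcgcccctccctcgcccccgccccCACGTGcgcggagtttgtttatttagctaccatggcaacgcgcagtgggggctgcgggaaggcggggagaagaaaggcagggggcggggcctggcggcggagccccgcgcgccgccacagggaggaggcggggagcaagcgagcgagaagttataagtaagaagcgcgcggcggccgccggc
Klf6: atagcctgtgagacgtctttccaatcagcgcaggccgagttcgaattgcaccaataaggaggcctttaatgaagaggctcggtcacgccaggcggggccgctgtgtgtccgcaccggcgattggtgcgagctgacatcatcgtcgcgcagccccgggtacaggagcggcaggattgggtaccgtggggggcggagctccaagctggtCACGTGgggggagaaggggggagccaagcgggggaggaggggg

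The Klf2 promoter matched the MEF2 site, searched by name, 118 bases before the start, a match found in 2.92% of 32851 RefSeq promoter windows of this length, and the CACCC box 19 bases before it. The E-box began 182 bases before the start in Klf4 and 43 bases before it in Klf6, and 6.02% of all windows held one. CACCC itself was in 52.0% of windows, with 5 matches in the Klf3 promoter, 3 in that of Klf7, 1 in that of Klf13 and 0 in those of Klf4 and Klf6. None of the 6 promoters matched held the cAMP response element TGACGTCA (1.55% of windows), the AP-1 site TGANTCA (6.75%) or the CArG box by name (1.47%). A match describes letters, not a bound site. By the GENCODE annotation used for the levels below, the window of Klf7 lies inside the gene. Those of Klf2, Klf3 and Klf6 run past the gene start of that annotation.

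Read depth was 9.76 to 12.3 M reads per library. Separate animals are not stated for the samples, so the spread behind each p-value may be technical. All 10 microglial markers were abundant, with a summed level of 201252 normalized reads in CON 18 and of 305624 to 324844 in each of the remaining 12 libraries. CON 18 stood apart from the rest (median Spearman correlation with the others 0.942) and held 14733 normalized reads of 7 border-associated macrophage markers, where 187 to 449.5 were found elsewhere. RSD 8 stood apart less (0.968, against 0.989 to 0.992 for the other 11), and its deviations from the gene medians followed the GC content of transcripts most closely (Spearman correlation -0.728 over 11878 genes, with -0.567 in RSD 2 and -0.085 to 0.406 in the rest). Sample titles carry numbers in 2 ranges, 10 to 19 (4 RSD and 3 CON libraries) and 1 to 8 (3 RSD and 3 CON libraries). The labels do not say what the ranges stand for.

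Per kilobase of exon, the levels of the members differed widely, with Klf2, Klf6 and Klf4 at the head of the order. Klf2 averaged 4011 ± 1539 normalized reads per kilobase of its merged exons (SD, n = 13), Klf6 1927 ± 708 and Klf4 1072 ± 337. Their ranges overlapped in that order, 2216 to 6433 for Klf2, 965 to 2955 for Klf6 and 605 to 1629 for Klf4, but within each of the 13 libraries Klf2 was above Klf6 and Klf6 above Klf4. Klf3 followed at 169 ± 13.9 and Klf13 at 116 ± 13.6 normalized reads per kilobase, with ranges that did not meet (143 to 187 and 77.6 to 130.03). Klf7, at 46.9 ± 6.06, and Klf10, at 31.9 ± 11.0, were lowest, and their ranges overlapped. Klf7 was above Klf10 in 11 of 13 libraries, RSD 13 and CON 18 being the exceptions, and every other neighbouring pair of members kept its order in all 13.

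The other genes of the family filled the gaps below Klf4. Sp3, Sp1 and Sp4, relatives that bind the same GC boxes, stood at 459 ± 77.8, 281 ± 12.7 and 195 ± 24.1 normalized reads per kilobase. In mean they were above every member other than Klf2, Klf4 and Klf6, but the ranges of Sp4 (164 to 251) and Klf3 (143 to 187) overlapped. Klf12 was at 133 ± 24.7, Sp2 at 106 ± 11.3, Klf11 at 43.1 ± 19.7 and Klf16 at 40.2 ± 10.7. Klf9, known as a glucocorticoid-responsive member, stood at 5.29 ± 1.64, and Klf15 and Sp6 at 1.71 ± 1.22 and 1.56 ± 0.870. Klf1, Klf5, Klf8, Klf14 and Klf17 were not analysed here.

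The relative spread between libraries set Klf2, Klf6, Klf10 and Klf4 apart from the rest. The coefficient of variation over 13 libraries was 38.4% for Klf2, 36.8% for Klf6, 34.7% for Klf10 and 31.4% for Klf4, against 12.9% for Klf7, 11.8% for Klf13 and 8.22% for Klf3. Klf3 had the smallest of these spreads at a mean of 1899 normalized reads, and Klf2 the largest at a mean of 7409.

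Whether microglia still differed in these factors 24 days after defeat is the question of the RSD and CON comparison. None of the 7 members differed past an adjusted p of 0.05 in limma's test on log2(normalized reads + 1), and 0 of the 12496 genes tested did (0.00%), while 500 genes (4.00%) had an unadjusted p under 0.05. edgeR also called 0 genes (601 unadjusted) and DESeq2 called 2 (577 unadjusted), none of them a member. The groups overlapped for all 7 members, as they did for all but 8 of the 12496 genes (0.0640%; 0.0320% higher and 0.0320% lower in RSD). In a sorted bulk sample, fewer cells of a type and less RNA per cell cannot be told apart.

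Klf2 ran from 4094 to 11881 normalized reads in RSD (median 8412) and from 4345 to 10684 in CON (median 5738). Both groups held libraries at either end, and the mean of 7902 ± 3276 in RSD stood beside 6833 ± 2405 in CON. The log2 difference was 0.16 ± 0.30 (SE; 95% interval -0.49 to 0.81; adjusted p = 0.895), and it was 0.42 in limma-voom with sample weights (adjusted p = 0.668) and 0.26 without CON 18 and RSD 8 (adjusted p = 0.951).

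Klf4 lay between 2309.6 and 4968 normalized reads in RSD (median 3586) and between 1843 and 4496 in CON (median 2843). The mean over RSD libraries, 3584 ± 1039, was above that over CON libraries, 2901 ± 966, by less than the spread within either group, with a log2 difference of 0.32 ± 0.23 (95% interval -0.18 to 0.81; adjusted p = 0.821).

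Klf6 ranged from 5018 to 12976 normalized reads in RSD (median 9219) and from 4238 to 11874 in CON (median 7016). Its means were 9209.9 ± 2843 in RSD and 7589 ± 3439 in CON, and its log2 difference was 0.35 ± 0.30 (95% interval -0.31 to 1.00; adjusted p = 0.821). It was 0.72 ± 0.30 in limma-voom with sample weights, where it did not pass either (unadjusted p = 0.0340, adjusted p = 0.532).

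The repressor Klf3 averaged 1888 ± 158 normalized reads over RSD libraries and 1911 ± 168 over CON libraries, with a log2 difference of -0.02 ± 0.08 (95% interval -0.18 to 0.14; adjusted p = 0.958). This interval is the narrowest of the members and holds no change beyond 0.18 in size. For Klf7 the RSD mean was 386 ± 50.1 normalized reads and the CON mean 375 ± 52.3 (log2 difference 0.04 ± 0.11; adjusted p = 0.916). Klf13 stood at 853 ± 139 in the RSD group and 889 ± 34.5 in the CON group, a log2 difference of -0.08 ± 0.10 (adjusted p = 0.850), and its larger SD in RSD came with a single low library, RSD 8 at 584 normalized reads, where the other RSD libraries held 804 to 979.

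Klf10, the TGF-beta target, had an RSD mean of 131 ± 37.1 normalized reads and a CON mean of 135 ± 58.8 (log2 difference 0.01 ± 0.22; adjusted p = 0.993). A high library stood in each group, RSD 13 at 209 and CON 18 at 248 normalized reads, and the other 11 held 90.4 to 149. Over the 7 members the median log2 difference was 0.04, with 5 of 7 positive, beside 0.006 over all genes tested.

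**Figure D1:**
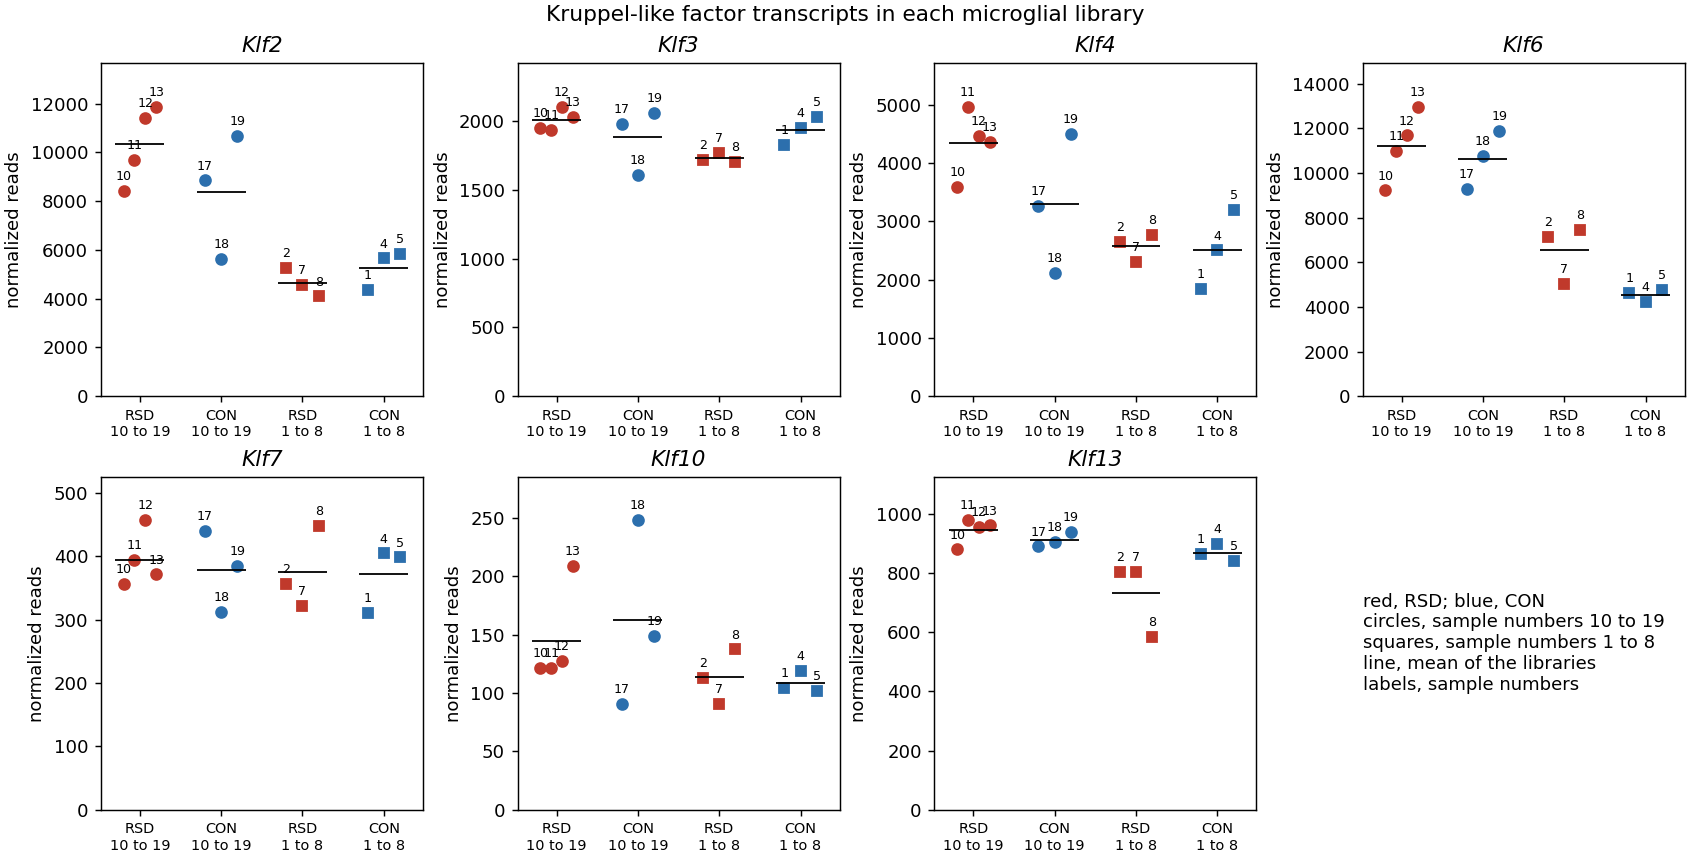
Normalized reads of the 7 members (y axis, linear, from 0) in each of the 13 libraries, with RSD in red and CON in blue, sample numbers 10 to 19 as circles and 1 to 8 as squares, and a line at the mean of each set. RSD and CON overlap in both ranges for Klf2, Klf4, Klf7 and Klf10 and do not overlap in numbers 1 to 8 for Klf3, Klf6 and Klf13, while Klf6 lies between 9219 and 12976 in numbers 10 to 19 and between 4238 and 7454 in numbers 1 to 8.

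Plotted by library, the values of Klf2, Klf4 and Klf6 lay apart by the ranges of sample numbers, except in CON 18 for Klf2 and Klf4, and a comparison of these ranges was added after the values were seen. Klf6 held 9219, 10995, 11682 and 12976 normalized reads in RSD 10, 11, 12 and 13, against 9275, 10749 and 11874 in CON 17, 18 and 19. In the lower numbers it held 7125, 5018 and 7454 in RSD 2, 7 and 8, against 4637, 4238 and 4758 in CON 1, 4 and 5. Every library of numbers 10 to 19 was above every library of numbers 1 to 8, which was so for no other member and in this direction for 0.624% of all genes tested (0.648% in the other direction, 1.27% in both). Its mean was 10967 ± 1375 in numbers 10 to 19 (SD, n = 7) and 5539 ± 1384 in numbers 1 to 8 (SD, n = 6), a log2 difference of 0.99 ± 0.12 beside the group term (95% interval 0.74 to 1.24; limma adjusted p = 0.00073). By p it ranked 6 among the 12496 genes.

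Klf2 held 8412, 9706, 11414 and 11881 normalized reads in RSD 10, 11, 12 and 13, against 8851, 5643 and 10684 in CON 17, 18 and 19. In the lower range there were 5251, 4559 and 4094 in RSD 2, 7 and 8, against 4345, 5650.0 and 5826 in CON 1, 4 and 5. Only CON 18 of the higher numbers fell among the lower ones. The means were 9513 ± 2131 in numbers 10 to 19 and 4954 ± 721 in numbers 1 to 8, a log2 difference of 0.91 ± 0.15 (95% interval 0.58 to 1.24; adjusted p = 0.0128). The call did not hold without RSD 7 (0.87, adjusted p = 0.0527) or without RSD 8 (0.84, adjusted p = 0.0647), and without both CON 18 and RSD 8 the difference was 0.99 (adjusted p = 0.0050).

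Klf4 held 3586, 4968, 4460.0 and 4364 normalized reads in RSD 10, 11, 12 and 13, against 3269, 2112 and 4496 in CON 17, 18 and 19. In the lower numbers it held 2642, 2310 and 2762 in RSD 2, 7 and 8, against 1843, 2499 and 3188 in CON 1, 4 and 5. CON 18 was again the low library of its range. The log2 difference was 0.57 ± 0.17 (95% interval 0.21 to 0.93), which did not pass (adjusted p = 0.186). It passed without CON 18 (0.71, adjusted p = 0.00748) and in DESeq2 (0.59, adjusted p = 0.0256), and had an adjusted p of 0.071 without CON 18 and RSD 8.

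Of the other members, Klf10 differed by 0.39 ± 0.20 (adjusted p = 0.437), with 152 ± 55.9 normalized reads in numbers 10 to 19 and 111 ± 16.1 in numbers 1 to 8. Klf13 differed by 0.24 ± 0.09 (adjusted p = 0.261), Klf3 by 0.09 ± 0.07 (adjusted p = 0.649) and Klf7 by 0.05 ± 0.11 (adjusted p = 0.872). In all, 2 of 7 members were called higher in numbers 10 to 19, where 86 of 12496 genes were called (0.688%; 66 higher, or 0.528%, and 20 lower, or 0.160%), and 12.8% had an unadjusted p under 0.05. The median of the 7 was 0.39, beside -0.007 over all genes tested.

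The count of 86 genes changed with single libraries. It was 35 without RSD 7, 48 without RSD 8, RSD 11 or RSD 12, 36 without RSD 13, 57 without CON 1, 50 without CON 4, 38 without CON 5 and 32 without CON 19, and it was 170 without CON 18. Klf6 stayed past the threshold with any library left out, with log2 differences of 0.93 to 1.07.

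**Figure D2:**
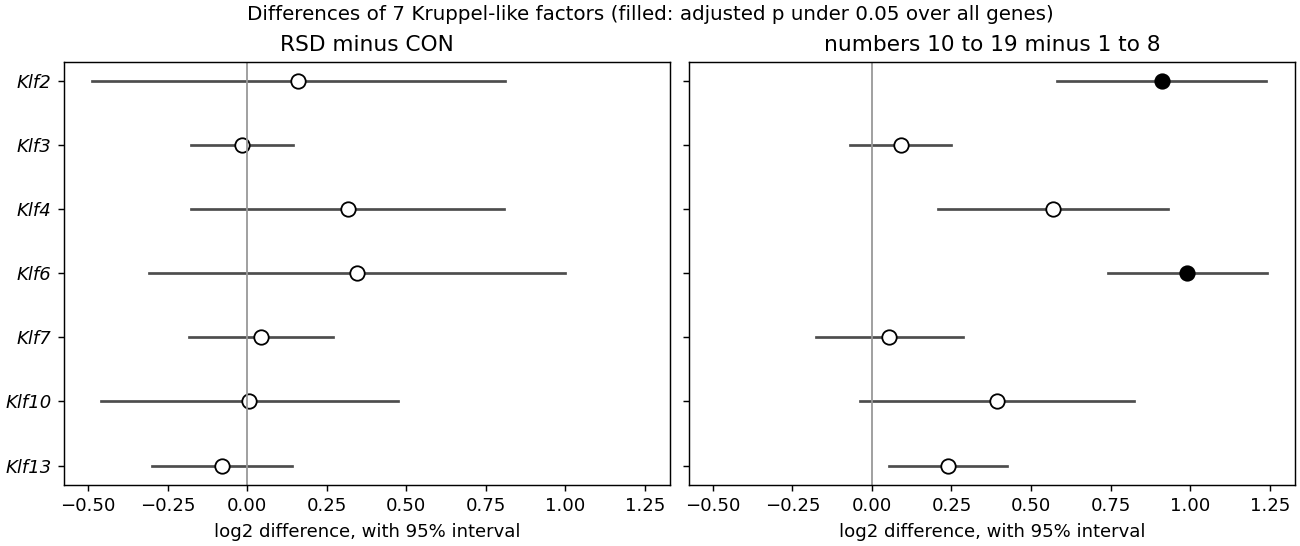
Log2 differences (points) with 95% intervals (lines) of the 7 members for RSD minus CON on the left and numbers 10 to 19 minus 1 to 8 on the right, filled where the adjusted p over all genes was under 0.05. No point is filled on the left, where all intervals hold 0, and Klf2 (0.91) and Klf6 (0.99) are filled on the right.

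Within the ranges, RSD and CON were compared again. In numbers 1 to 8, Klf6 was at 5018 to 7454 normalized reads in RSD, against 4238 to 4758 in CON, with no overlap and a log2 difference of 0.50 ± 0.15 (adjusted p = 0.204). Klf3 and Klf13 did not overlap either, with lower values in RSD: Klf3 lay at 1706 to 1768 in RSD against 1831 to 2032 in CON, and Klf13 at 584 to 805 in RSD against 839.96 to 898 in CON. These 3 of 7 members stand beside 30.5% of all genes without overlap in these libraries (16.2% higher and 14.3% lower), and of these libraries RSD 2 and RSD 8 had the most negative correlations with GC content. Klf13 transcripts have 55.5% GC (80.7% of genes are lower), those of Klf6 42.4% (14.5% are lower) and those of Klf3 45.7% (29.4% are lower). The part of GC content in these differences was not tested.

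In numbers 10 to 19, no member was free of overlap between RSD and CON, beside 8.59% of all genes (4.33% higher and 4.26% lower in RSD). Here Klf6 was even, with a log2 difference of 0.07 ± 0.13, while Klf2 (0.34 ± 0.23) and Klf4 (0.46 ± 0.25) had means above those of CON, of which CON 18 was the low library for both. In 1 fit of all 13 libraries with the range as a term, Klf6 had a log2 difference of 0.27 ± 0.12 between RSD and CON (unadjusted p = 0.0339, adjusted p = 0.701) and Klf4 one of 0.27 ± 0.17 (adjusted p = 0.701), where 0 genes passed (0.00%) and 5.87% had an unadjusted p under 0.05. The test of whether the RSD difference itself differed between the ranges called 0 genes (0.00%; 21.7% unadjusted). For the members, its adjusted p ran from 0.243 for Klf6, whose log2 interaction was -0.43 ± 0.21 (a smaller RSD difference in numbers 10 to 19), to 0.895 for Klf7.

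The rest of the family was tested in the same fits. Of Klf9, Klf11, Klf12 and Klf16, 0 of 4 passed between RSD and CON, beside 0.00% of all genes. Here Klf12, a repressor that binds CtBP, had 0.22 ± 0.16 and Klf9 0.34 ± 0.27 (adjusted p = 0.821 for both). Between the ranges 1 of 4 was called higher in numbers 10 to 19, beside 0.528% of all genes, namely Klf11, a TGF-beta-inducible repressor closely related to Klf10. It held 185.0, 221, 179 and 339 normalized reads in RSD 10, 11, 12 and 13, against 208, 369.6 and 219 in CON 17, 18 and 19. There was no overlap with the 110.4 to 129.8 of the 6 lower-numbered libraries, as was so in this direction for 0.624% of all genes. The log2 difference of Klf11 was 0.99 ± 0.16 (adjusted p = 0.00981), and it passed with each library left out. Klf12 differed by -0.26 ± 0.15 (adjusted p = 0.498), with CON 18 at 455 normalized reads and the other libraries at 874 to 1267.

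Over all genes, 0.00% were called between RSD and CON and 0.688% between the ranges. Sp1, Sp2, Sp3 and Sp4 gave 0 of 4 calls in either comparison. Their median log2 difference was 0.07 between RSD and CON, where Sp2 had -0.16 ± 0.09 and Sp4 0.10 ± 0.09, and -0.04 between the ranges, where Sp3 had -0.07 ± 0.11 and Sp4 -0.04 ± 0.10 and none of the 4 was positive. RSD 8 was the highest library for Sp3 (3367 normalized reads), Sp1 (2568), Sp4 (1449) and Klf12 (1267). It was the lowest for Sp2 (298), Klf16 (51.1) and Klf13. Transcripts of Sp3, Sp1, Sp4 and Klf12 have 40.1%, 43.6%, 39.9% and 45.5% GC, and those of Sp2, Klf16 and Klf13 have 55.6%, 60.4% and 55.5%. Of the other members, RSD 8 was lowest for Klf2 (61.6% GC). It was at neither end for Klf3 (45.7%), Klf4 (54.6%), Klf6 (42.4%), Klf7 (45.3%) and Klf10 (46.9%). The same was so outside the members for Klf9 (47.5%) and Klf11 (48.9%). The part of GC content in these values was not tested.

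**Figure D3:**
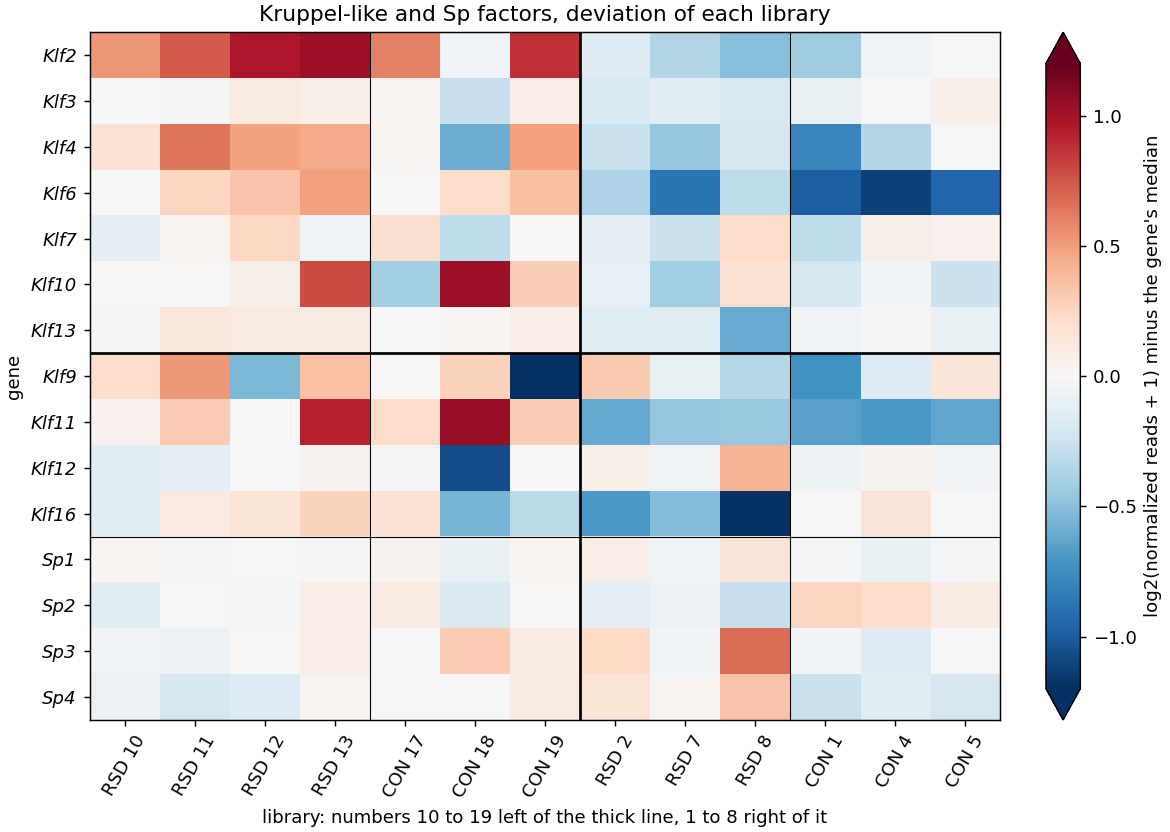
Deviation of log2(normalized reads + 1) from the gene's median over 13 libraries (colour; arrow ends of the scale hold values past 1.2) for the 7 members, 4 other Kruppel-like factors and 4 Sp factors (rows), with numbers 10 to 19 left of the thick line. Klf2, Klf4, Klf6 and Klf11 have their red cells mostly left of that line and their blue cells right of it, with CON 18 an exception in Klf2 and Klf4.

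Genes of proteins that act with the family or upstream of it gave no calls. Of 9 corepressors and coactivators, 6 ubiquitin ligases, 8 genes of the ERK5, MEF2 and FOXO1 route and 6 genes of TGF-beta signalling, 0 passed in either comparison. Over all genes, 0.00% passed between RSD and CON and 0.688% between the ranges, so 0 calls are near that share. The median log2 differences of these lists lay between -0.01 and 0.02 for RSD and CON and between -0.02 and 0.05 for the ranges. Hdac2, a histone deacetylase, had the smallest p of these genes between RSD and CON, with 508 ± 73.7 normalized reads in the RSD group and 432 ± 40.9 in the CON group (0.23 ± 0.09, adjusted p = 0.821), and Ctbp2, a corepressor bound by Klf3, had 0.08 ± 0.06. Mapk7, which encodes ERK5, had -0.25 ± 0.13 between RSD and CON and 0.21 ± 0.13 between the ranges (adjusted p = 0.821 and 0.521). Tgfbr1, a TGF-beta receptor, had 0.15 ± 0.09 between RSD and CON and -0.11 ± 0.09 between the ranges.

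Of the ligases, Itch had 0.13 ± 0.07 and Btrc -0.15 ± 0.08 between RSD and CON, and Siah1a -0.12 ± 0.08 and Fbxw7 -0.10 ± 0.09 between the ranges. Map3k2, a kinase upstream of ERK5, had 0.13 ± 0.09 and Smad4, the shared SMAD, 0.10 ± 0.06 between RSD and CON. Between the ranges the values were 0.12 ± 0.07 for the acetyltransferase gene Crebbp, 0.15 ± 0.11 for the corepressor gene Sin3b, 0.12 ± 0.10 for Mef2d and 0.07 ± 0.07 for Tgfbr2. None of these values passed.

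Among genes described as targets of members in other tissues, 7 of 13 could be tested. Between RSD and CON 0 passed, beside 0.00% of all genes. The smallest p were those of Fam132a (0.37 ± 0.23) and the inhibitory SMAD gene Smad7 (0.17 ± 0.12), both at an adjusted p of 0.821. Between the ranges 1 passed, beside 0.688% of all genes, namely Ptgs2, which encodes the prostaglandin-forming enzyme COX-2. It was low in all libraries, at 33.6 ± 12.8 normalized reads in numbers 10 to 19 and 8.74 ± 3.17 in numbers 1 to 8, a log2 difference of 1.81 ± 0.29 (adjusted p = 0.00883). Cdkn1a, a cell cycle inhibitor that Klf4 and Klf6 are known to activate, had 0.92 ± 0.22 (adjusted p = 0.0722). The count of 1 was 2 without CON 5 and in DESeq2, where 38 and 255 of all genes were called, beside 86 in limma with all libraries.

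Immediate early genes, which are transcribed within minutes of a stimulus or of cell handling, also differed between the ranges. Of 16 such genes, 0 passed between RSD and CON (median log2 difference 0.07; Btg2 0.22 ± 0.11 and Fos 0.29 ± 0.19), and 5, namely Fos, Jun, Atf3, Dusp1 and Nr4a1, passed as higher in numbers 10 to 19, with 16 of 16 positive and a median of 0.57. Over all genes, 0.528% were called higher in numbers 10 to 19, and the median was -0.007. Atf3 had 4809 ± 1251 normalized reads in numbers 10 to 19 and 1912 ± 481 in numbers 1 to 8 (log2 difference 1.296 ± 0.15, adjusted p = 0.00078). Dusp1 had 13110.1 ± 1009 in numbers 10 to 19 and 8572 ± 991 in numbers 1 to 8 (0.61 ± 0.08, adjusted p = 0.0020). With 1 library left out, 4 or 5 of the 16 passed, apart from 8 without CON 18, and 9 passed without CON 18 and RSD 8. The count was 6 in edgeR and 8 in both DESeq2 and limma-voom with sample weights. Where 8 or 9 passed, the count over all genes was higher too, at 170 without CON 18, 246 without CON 18 and RSD 8, 255 in DESeq2 and 265 in limma-voom, beside 86. The mean of the 16 on the log2 scale was 11.70 to 12.13 in numbers 10 to 19 and 11.17 to 11.59 in numbers 1 to 8 (difference 0.58, exact two-sided permutation p = 0.000583), whereas RSD and CON differed by 0.08 (exact two-sided permutation p = 0.682). The list was chosen with earlier results of these data known, and the ranges were compared after the values were seen. The p between the ranges is therefore not that of an independent test.

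Inducible heat shock genes also moved with the ranges. Of 10, 7 were called higher in numbers 10 to 19 and 0 between RSD and CON, beside 0.528% and 0.00% of all genes. The medians of the 10 were 0.96 and 0.71, beside -0.007 and 0.006 over all genes tested, with 10 of 10 positive in both comparisons. Hspb1 had 2.49 ± 0.31 (adjusted p = 0.00229) and Dnajb1 0.81 ± 0.15 (adjusted p = 0.0217) between the ranges, and Hspe1 0.62 ± 0.25 and Hspa8 0.48 ± 0.20 (adjusted p = 0.821 for both) between RSD and CON. The count of 7 stayed with CON 18 and RSD 8 left out and was between 1 and 7 with 1 library left out. It was 4 without CON 17 or RSD 11, 2 without CON 4 or RSD 13 and 1 without CON 5, CON 19 or RSD 7. The count over all genes, 86 with all libraries, was lower in these settings too. That count was 84 without CON 17, 48 without RSD 11, 50 without CON 4 and 36 without RSD 13. Without CON 5, CON 19 or RSD 7 it was 38, 32 and 35. Within numbers 1 to 8 the heat shock sums did not overlap between the groups. They were 54752 to 82081 normalized reads in RSD and 22907 to 33590.1 in CON. In these libraries Klf6 did not overlap either, as was so for 30.5% of all genes (16.2% higher and 14.3% lower in RSD). Within numbers 10 to 19 the sums overlapped, at 105822 to 155799 in RSD and 76922 to 124635 in CON. The part of early or heat shock transcription in the levels of Klf2, Klf4 and Klf6 was not tested.

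**Figure D4:**
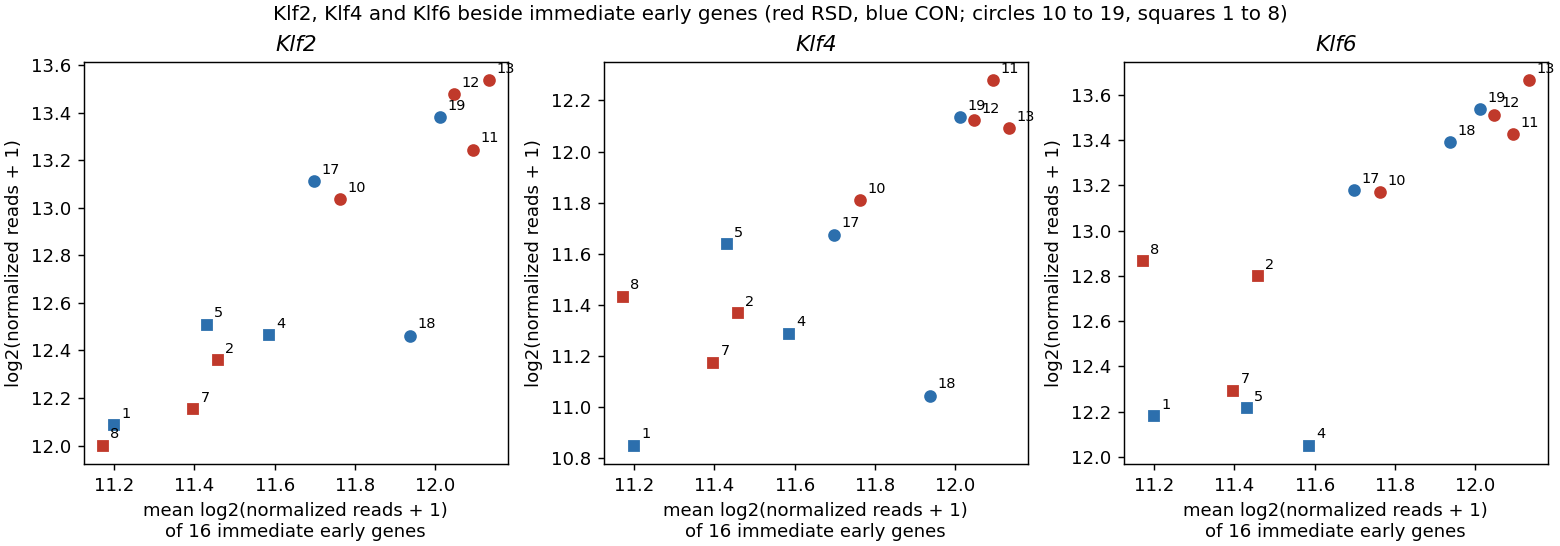
Log2(normalized reads + 1) of Klf2, Klf4 and Klf6 (y axes) against the mean log2(normalized reads + 1) of 16 immediate early genes (x axes) in the 13 libraries, with RSD in red, CON in blue, numbers 10 to 19 as circles and 1 to 8 as squares. The circles lie at 11.70 to 12.13 and the squares at 11.17 to 11.59 on the x axes, and CON 18 lies with the circles for Klf6 and with the squares for Klf2 and Klf4.

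Markers of other cells were summed in each library because Klf2 and Klf4 are abundant in endothelium. The 5 endothelial markers that could be summed (Pecam1, Cdh5, Flt1, Kdr and Slco1a4) gave 432 to 574 normalized reads in RSD, against 197 to 576 in CON. By range they gave 197 to 576 in numbers 10 to 19 and 432 to 569.9 in numbers 1 to 8. The lowest sum was that of CON 18, and Slco1a4, a transporter of brain endothelium, was at 0 to 9.61. Their mean did not separate RSD and CON (exact two-sided permutation p = 0.838) or the ranges (p = 0.499 by the same exact test).

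Neutrophil markers were lower in sum in numbers 10 to 19, with 15.5 to 157 normalized reads against 188 to 1220.3 in numbers 1 to 8. The log2 difference of their mean was -2.57 (exact two-sided permutation p = 0.00233). The means of 8 of 9 genes were lower, and Retnlg, near 0 in both ranges, was not. Of the 8, Cxcr2 was nearly even (9.67 against 9.72) and Mmp8 near 0 (1.48 against 2.45). The 4 astrocyte genes summed, Aqp4, Slc1a3, Slc1a2 and S100b, were each lower in mean too (-0.41 for their mean on the log2 scale, exact two-sided permutation p = 0.00175). CON 18 had the lowest astrocyte sum, 498 normalized reads, beside 1265 to 1646 in the rest. Every other list of cell markers had a p of at least 0.131 between the ranges by this test. These p are not adjusted, and the ranges were compared after the values were seen. The part of neutrophil or astrocyte transcripts in the differences of the Kruppel-like factors was not tested.

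Since values of several members lie apart by range, correlations were taken within each range, 21 pairs in each and 42 in all, on log2(normalized reads + 1). In numbers 10 to 19 (n = 7 libraries) the median Pearson r was 0.52, from -0.75 to 0.95, with 17 of 21 positive. In numbers 1 to 8 (n = 6 libraries) it was 0.27, from -0.79 to 0.77, with 13 of 21 positive. None passed an adjusted p of 0.05 over the 42. In numbers 10 to 19, all 4 negative r were of Klf10 with Klf2, Klf3, Klf4 or Klf7, and CON 18 is high in Klf10 and low in the others. Without CON 18 and the next library farthest from the median, r turned to 0.60 (0.598) for Klf2 and Klf10 and to 0.60 (0.596) for Klf3 and Klf10, and was 0.0819 for Klf4 and -0.64 for Klf7.

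Klf2 and Klf3 had the highest r, 0.95 in numbers 10 to 19 (exact permutation p = 0.00635, adjusted 0.133; Spearman rho 0.79, exact permutation p = 0.0480, adjusted 0.464), and r was 0.84 without CON 18 and RSD 13, the libraries farthest from the Klf2 median. Klf2 and Klf4 followed in that range at 0.92 (exact permutation p = 0.0125, adjusted 0.175; rho 0.61, exact permutation p = 0.167, adjusted 0.50), with 0.71 without the same libraries. In numbers 1 to 8, Klf6 and Klf13 went opposite ways (r = -0.79, exact permutation p = 0.00139, adjusted 0.0583; rho = -1, exact permutation p = 0.00278, adjusted 0.117), and r was -0.98 without RSD 2 and RSD 8. In these 6 libraries each of both genes separates RSD from CON without overlap, so this r holds the difference between the groups. In numbers 10 to 19 the same pair had r = 0.81 (exact permutation p = 0.0294, adjusted 0.247; rho 0.75, exact permutation p = 0.0663, adjusted 0.464), and 0.37 without RSD 10 and CON 17.

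For each member, the genes outside the family with the most similar pattern were taken by Pearson r over all 13 libraries among 8844 genes averaging at least 100 normalized reads. These r describe libraries that share depth, range and sorting, and no test was made. Klf2 was nearest to Fosb (0.96), Egr1 (0.95) and Gem (0.94), and Klf4 to Fosb (0.95), Spry1 (0.91) and Otud1 (0.89). Fosb and Egr1 are immediate early transcription factors, and Spry1 is an inhibitor of receptor kinase signalling. Egr1 stayed near Klf2 within numbers 10 to 19 (0.96) and within 1 to 8 (0.92), whereas Gem had 0.96 in the higher numbers and 0.14 in the lower. Fosb had 0.95 and 0.74 with Klf2, and 0.98 and 0.72 with Klf4, in the same order of ranges. Otud1 had 0.98 with Klf4 in numbers 10 to 19 and 0.27 in 1 to 8, and Spry1 0.93 and 0.85.

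Klf6 was nearest to Atf3 (0.96), a stress-induced transcription factor, Plk2 (0.95) and Odc1 (0.94), the enzyme that starts polyamine synthesis. Within numbers 10 to 19 these r were 0.94, 0.799 and 0.65, and within 1 to 8 they were 0.797, 0.92 and 0.76. The Klf6 means of the ranges lie far apart, and the r over 13 libraries include that distance. The genes nearest to Klf10 were Acsl1 (0.92), Insig1 (0.92) and Ankfy1 (0.90), of which Acsl1 and Insig1 work in fatty acid and sterol metabolism. Klf13 was nearest to Jund (0.97), Noc4l (0.97) and Arhgef10l (0.97), with r of 0.98, 1.00 (0.998) and 0.98 within numbers 1 to 8, where RSD 8 is low, and 0.72, 0.58 and 0.74 within numbers 10 to 19. Klf3 had Tubb4b (0.93), Stat3 (0.92) and Plcb2 (0.92), and Klf7 had the lowest values of likeness, with Clta (0.80), Fli1 (0.79) and Epb4.1l2 (0.79). Within a range, the 9 genes nearest to Klf3, Klf7 and Klf10 had r of 0.598 (Acsl1 in numbers 1 to 8) to 0.98.

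The members lie on 7 chromosomes, so none neighbours another. On GRCm38, Klf2 lies at chromosome 8, 72319033 to 72321656, Klf4 at chromosome 4, 55527143 to 55532466, and Klf6 at chromosome 13, 5861482 to 5870394. Klf3 lies at chromosome 5, 64803388 to 64832901, Klf7 at chromosome 1, 64029447 to 64122282, Klf10 at chromosome 15, 38291463 to 38300706, and Klf13 at chromosome 7, 63886351 to 63938915. No annotated gene overlaps Klf2, Klf4, Klf6 or Klf10. Exons of Klf7 share 3465 bases with the noncoding Gm26649 and 628 with Gm13748, and exons of Klf3 share 404 bases with Gm20033, all on the opposite strand. As the use of strand in counting is not given in the sources used here, reads of these partners cannot be told apart from those of Klf7 and Klf3.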

How the data were processed

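Microglial RNA of 13 samples was sequenced (Ovation SoLo libraries with AnyDeplete, per the labels' protocols). Per the submitters' processing notes, the authors used STAR, mm10 and DESeq2; not given in the sources used here: their versions, the counter, the annotation and the strand setting. The deposited signal is a read count divided by a size factor per sample: 100% of values were whole multiples of a step within a tolerance of 0.01 reads, so whole reads were recovered. At 9.76 to 12.3 M reads, a library's counting error matters for Klf10 and lower genes.

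Genes were kept by filterByExpr (minimum count 10, minimum total 15; all 7 members passed) and tested, two-sided, with limma 3.58.1 (trend, robust) on log2(value + 1) with Benjamini-Hochberg adjustment over 12496 genes at 0.05; fold changes of low genes are understated on this scale. edgeR 4.0.16 and DESeq2 1.42.0 on the recovered reads, in R 4.3.3, were alternatives. DESeq2 started from the same genes, but its default settings can leave some of them out of the adjustment. The limma step was tested on simulated data. Groups followed the labels, and number ranges the sample numbers in the titles; the range comparison, its interaction with group and the correlations within ranges were added after the values were seen. Scores used an exact permutation test over all 1716 assignments of libraries. Members and lists were chosen with earlier results of these data known.

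All 7 members were named, with the 2 genes of smallest p in each list and comparison, the 3 genes most like each member and markers needed for a statement. Levels per kilobase used merged exons of GENCODE M21 (GRCm38), and promoters came from RefSeq (GRCm38.p6), where 6 of the 7 members matched; Klf10 did not.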

Additional observations from a re-analysis of the deposited data

Results flagged for a closer look

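Klf13 in RSD 8 held 584 normalized reads, below the 804 to 979 of the other 6 RSD libraries, a gap large for the range of its group. It was the 1 such library in 14 groups examined (7 members in RSD and in CON), where chance marks about 1 in 20. RSD 8 also had the closest relation of its deviations to GC content (-0.728), and the part of GC content in this value was not tested.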

How the results depend on the processing

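No paired analysis was possible because RSD and CON share no sample number. Planned correlations over all 13 libraries are not given, since several members lie apart by number range. Between RSD and CON, no member passed under any alternative, and calls stayed at 0 apart from 2 in DESeq2. Signs turned where differences were small: Klf2 to -0.18 within numbers 1 to 8, Klf3 to 0.0979 within numbers 10 to 19, Klf7 to -0.0322 in limma-voom with sample weights and -0.0429 without CON 18 and RSD 8, Klf13 to 0.0348 and 0.0149 under the same settings and 0.0502 within numbers 10 to 19, and Klf10 to -0.0457 in edgeR, -0.0434 in DESeq2, -0.0859 within numbers 10 to 19 and -0.0208 with the range as a term. Limma-voom with sample weights also gave 0.72 for Klf6, 0.42 for Klf2 and 0.21 for Klf10, above their leave-one-out ranges. The cause was not tested. With 1 library left out, the count was 0 throughout, and differences ran from 0.04 to 0.30 for Klf2, -0.0652 to 0.00694 for Klf3, 0.20 to 0.45 for Klf4, 0.20 to 0.50 for Klf6, -0.00673 to 0.0927 for Klf7, -0.11 to 0.20 for Klf10 and -0.11 to 0.00976 for Klf13.

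Between the ranges, the count was 255 in DESeq2, 265 in limma-voom, 246 without CON 18 and RSD 8, and 32 to 170 with 1 library left out; the cause was not tested. Klf6 passed under every alternative tried. Klf2 ran from 0.84 to 1.05 and Klf4 from 0.48 to 0.71 with 1 library left out, with Klf4 at 0.59 and past the threshold in DESeq2. The other scalings, pseudocount and filter moved no call of a member.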
